A study of Rattus norvegicus with 6 samples.

Results

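Messenger RNA for 6 secreted inflammatory signals was examined in cultured rat astrocytes, neurons and oligodendrocyte precursor cells (OPCs), from which the myelin-making oligodendrocytes of the brain arise. The genes were 4 chemokines, Ccl2, Cxcl1, Cxcl2 and Cxcl10, and 2 cytokines, Il6 and Il1b. They were taken by their rat Ensembl identifiers, which is how the deposited table lists genes, and make up 6 of its 26405 genes. The identifiers are ENSRNOG00000007159 for Ccl2, ENSRNOG00000002802 for Cxcl1, ENSRNOG00000002792 for Cxcl2, ENSRNOG00000022256 for Cxcl10, ENSRNOG00000010278 for Il6 and ENSRNOG00000004649 for Il1b.

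Chemokines are small secreted proteins that draw white blood cells along a gradient. Ccl2 attracts monocytes through the receptor Ccr2, Cxcl1 and Cxcl2 attract neutrophils through Cxcr2, and Cxcl10, an interferon-induced gene, attracts activated T cells through Cxcr3. Il6 signals through its receptor and the shared subunit gp130 to the transcription factor Stat3. Il1b is made mainly by microglia and macrophages in the brain and is released after cleavage of its precursor. It drives the transcription of the other cytokine and of several chemokines in glia through the transcription factor NF-kB. Astrocytes exposed to injury or inflammatory signals are a known source of Ccl2, Cxcl1, Cxcl10 and Il6.

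The study sequenced total RNA from 6 libraries, 2 of each cell type, and the labels mention no treatment. The astrocytes (Life Technologies N7745-100) and the OPCs (N7746-100) had 1 passage, 8 days into culture, and were kept for 6 days after it. The neurons (A10840-01) were kept for 7 days with 0 passages. Each cell type came as its own commercial product, so cell type cannot be told apart from product, nor, for neurons, from passage and time in culture. The labels name no strain, age, brain region or sex, and do not say whether replicates were separate cultures, so p-values measure the spread between these libraries only.

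Total counts ran from 22265917 in OPC replicate 1 to 102861667 in astrocyte replicate 1. Levels are given as CPM, counts scaled to library size, where the size was adjusted by the trimmed mean of M values (TMM). By this measure 3 counts, taken as the limit that a count of 0 allows, came to between 0.0328 CPM in neuron replicate 1 and 0.115 CPM in OPC replicate 1. No other identifier in the table could be paired with a gene name, so neither the labelled cell types nor the presence of microglia, a known source of these signals, was checked against marker genes. In bulk RNA, fewer cells that express a gene and less of its RNA per cell cannot be told apart.

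Ccl2, Cxcl1, Cxcl2 and Il6 fell together from astrocytes to the other cell types. The DNA before the start of 3 of them is shown for that reason, with that of Cxcl10 for comparison. Cxcl10, at far fewer counts, was also higher in both astrocyte libraries than in all others. The sequences are the 250 bases before the start of each gene in RefSeq on build GRCr8, on the strand of the gene. Of the 6 genes, 5 had an entry and Ccl2 had none. They lie at chr14:17479322-17479571 (minus strand) for Cxcl1, chr14:17467256-17467505 (minus strand) for Cxcl2, chr4:5894576-5894825 (minus strand) for Il6 and chr14:15988816-15989065 (plus strand) for Cxcl10. Capitals mark matches to the kappa B consensus, the sequence that NF-kB dimers bind.
Cxcl1: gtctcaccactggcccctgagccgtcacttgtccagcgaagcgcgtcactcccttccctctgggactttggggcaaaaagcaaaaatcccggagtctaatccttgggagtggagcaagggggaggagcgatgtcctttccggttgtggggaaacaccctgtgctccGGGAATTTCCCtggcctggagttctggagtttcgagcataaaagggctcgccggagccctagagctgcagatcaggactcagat
Cxcl2: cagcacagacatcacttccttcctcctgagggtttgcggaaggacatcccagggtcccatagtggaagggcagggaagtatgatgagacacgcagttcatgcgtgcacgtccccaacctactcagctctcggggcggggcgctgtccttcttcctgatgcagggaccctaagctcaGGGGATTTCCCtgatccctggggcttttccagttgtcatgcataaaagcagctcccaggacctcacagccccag
Il6: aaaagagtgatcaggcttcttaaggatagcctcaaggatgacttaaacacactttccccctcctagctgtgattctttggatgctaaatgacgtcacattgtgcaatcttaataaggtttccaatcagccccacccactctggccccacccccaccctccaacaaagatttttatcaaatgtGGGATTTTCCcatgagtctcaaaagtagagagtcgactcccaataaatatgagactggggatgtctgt
Cxcl10: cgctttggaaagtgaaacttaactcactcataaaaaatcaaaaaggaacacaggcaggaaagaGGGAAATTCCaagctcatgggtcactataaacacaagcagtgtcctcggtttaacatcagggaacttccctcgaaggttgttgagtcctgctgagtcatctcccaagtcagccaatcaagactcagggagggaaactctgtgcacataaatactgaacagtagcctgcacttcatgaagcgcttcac

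Cxcl1, Cxcl2 and Il6 each held the kappa B consensus within 84 bases of the start. In Cxcl1 overlapping matches on opposite strands began 84 and 83 bases before the start. In Cxcl2 a pair of overlapping matches began 74 bases before it, and in Il6 the match began 68 bases before it. The match of Cxcl10 began 187 bases before the start, and the window of Il1b held 0. Of 33469 rat promoter windows of the same length, 3.54% held this consensus on either strand. Il6 also held the cyclic AMP response element TGACGTCA, 162 bases before the start (1.59% of windows), and beside it the C/EBP motif TTGCNNAA (9.22% of windows). Cxcl2 had a match to TTGCNNAA too, 217 bases before the start. Cxcl10 held the AP-1 motif TGANTCA (6.34% of windows) and, 243 bases before its start, the letters GAAANNGAA of interferon-stimulated response elements (8.12% of windows). The motifs were chosen with these sequences in view and searched on both strands. A match describes the letters of a window and says nothing of binding in these cells.

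**Figure D1:**
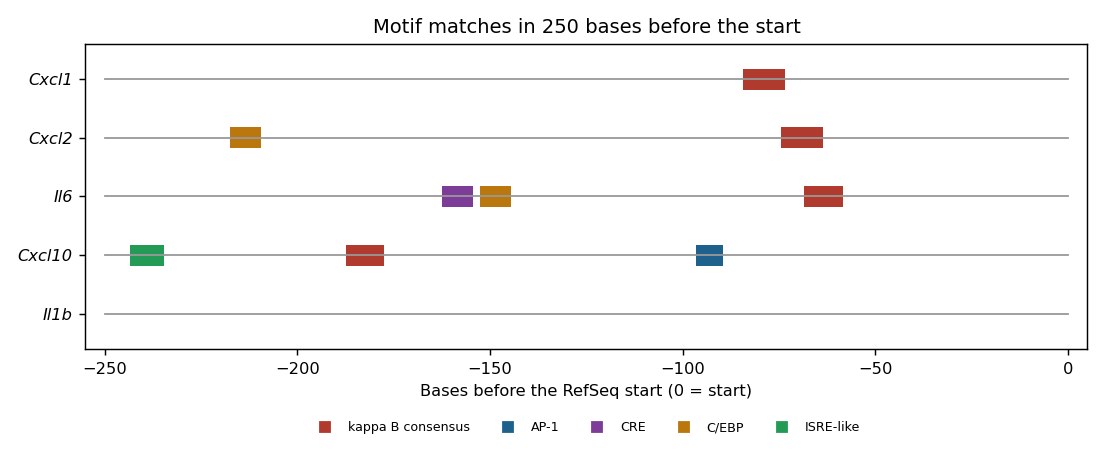
Positions of motif matches, in bases before the RefSeq start, in the 250-base windows of 5 genes; each coloured box is a match on either strand. The kappa B matches of Cxcl1, Cxcl2 and Il6 lie within 84 bases of the start, that of Cxcl10 begins at 187 bases, and Il1b has 0 matches to any of the motifs.

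Summed over the 6 genes, astrocytes held nearly all the raw counts, most of them of Ccl2 and Cxcl1. Il1b alone overlapped between astrocytes and neurons. The 6 genes together had 55095 counts in astrocyte replicate 1 and 6301 in replicate 2, against 111 and 21 in the neuron libraries and 1 and 5 in the OPC libraries. Of the 6 genes, Ccl2, Cxcl1, Cxcl2 and Il6 passed the filter on low counts, and they passed it through the astrocyte libraries alone. A gene kept for its astrocyte level had to differ where the other cell types lacked it, so how many of these genes were called is not evidence about them as a group. By edgeR's quasi-likelihood test, with Benjamini-Hochberg adjustment over all 18206 genes tested, each of the 4 was lower in neurons, a call made for 15.9% of all tested genes. Each was also lower in OPCs, a call made for 14.9%. The median log2 fold change of all tested genes was -0.06 for neurons and -0.04 for OPCs against astrocytes. These comparisons share the astrocyte libraries.

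**Figure D2:**
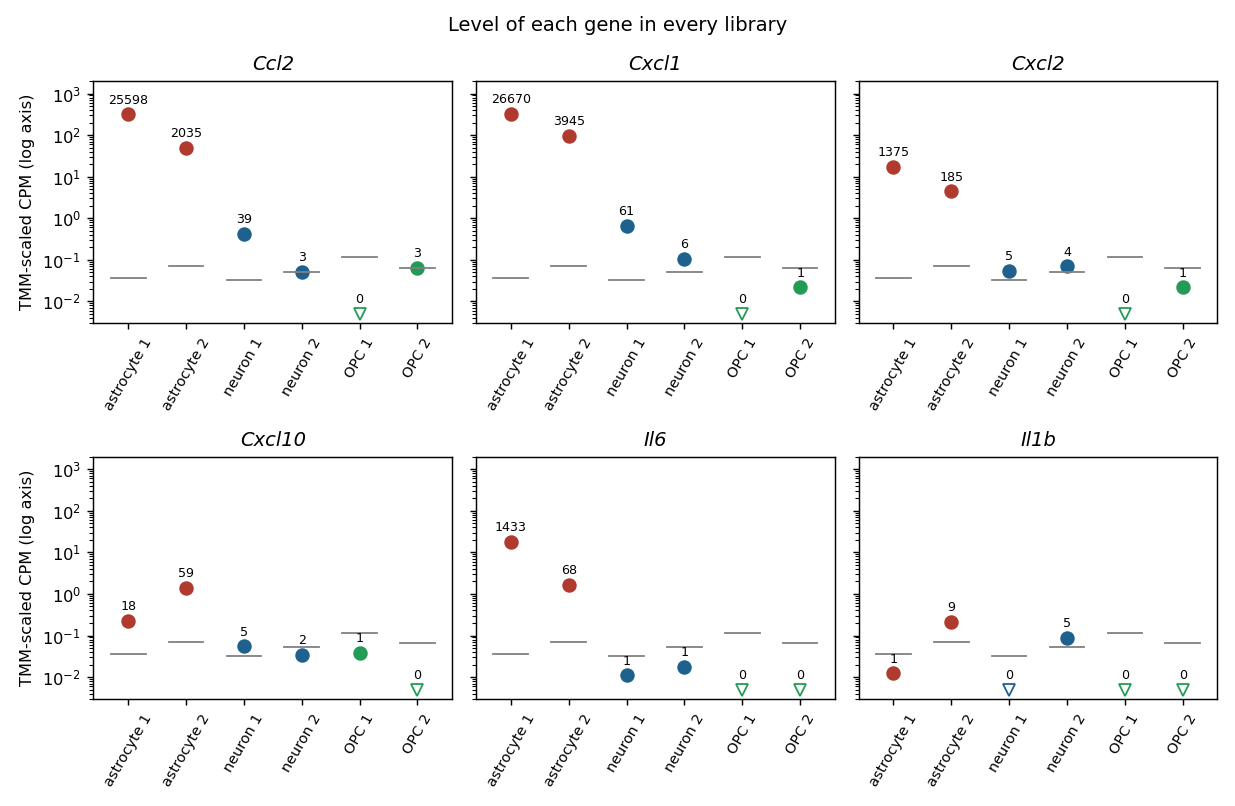
TMM-scaled CPM on a log axis for each gene in each of the 6 libraries, with the raw count printed above each point; open triangles are libraries with 0 counts, drawn at the foot of the axis, and grey bars mark the CPM of 3 counts. Ccl2, Cxcl1, Cxcl2 and Il6 stand far above the bar in both astrocyte libraries, while most neuron and OPC points lie near or under it.

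Ccl2, the monocyte attractant, stood at 314 CPM in astrocyte replicate 1 (25598 counts) and 48.5 CPM in replicate 2 (2035 counts). In neurons it stood at 0.426 CPM in replicate 1 (39 counts) and 0.0519 CPM in replicate 2 (3 counts), and in OPCs it had 0 and 3 counts. Both astrocyte libraries lay at least 114-fold above every other library, with no overlap. The astrocyte mean was 181 ± 187 CPM (SD, n = 2) and the neuron mean 0.239 ± 0.265 CPM. The log2 fold change of neurons against astrocytes was -9.47 ± 1.40 (SE; edgeR adjusted p = 0.00301). It was -7.49 without astrocyte replicate 1, -10.25 without astrocyte replicate 2, -11.70 with neuron replicate 1 left out and -8.72 when neuron replicate 2 was left out, and it was still called in each. With 3 OPC counts, the ratio of astrocytes to OPCs over pooled counts was 5379 (95% counting interval 1840.4 to 26085; edgeR adjusted p = 0.00282). Omitting astrocyte replicate 1 gave 1166 and omitting OPC replicate 1 gave 3442. Without OPC replicate 2, where 0 counts remained, astrocytes were at least 1937-fold higher, with the group set at a floor of 3 counts. Intervals and floors of this kind hold for counting error alone.

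Cxcl1, a neutrophil attractant, followed Ccl2 closely. It stood at 327 CPM in astrocyte replicate 1 (26670 counts) and 94.0 CPM in replicate 2 (3945 counts). Neuron replicate 1 had 0.667 CPM (61 counts) and neuron replicate 2 had 0.104 CPM (6 counts), while the OPC libraries had 0 counts and 1 count. The lowest astrocyte library was 141-fold above the highest neuron library. The log2 fold change of neurons against astrocytes was -9.03 ± 1.12 (SE; edgeR adjusted p = 0.00167). Leaving out a library gave -7.78 without astrocyte replicate 1, -9.65 without astrocyte replicate 2, -10.95 with neuron replicate 1 omitted and -8.30 with neuron replicate 2 omitted, each still called. The pooled ratio of astrocytes to OPCs was 17878 (95% counting interval 3209 to 706182; edgeR adjusted p = 0.00127). Omitting astrocyte replicate 1 gave 6782, omitting OPC replicate 1 gave 11440.3, and omitting OPC replicate 2, which left 0 counts, gave at least 2146-fold.

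Cxcl2 also attracts neutrophils, and it lies next to Cxcl1 on chromosome 14 in the RefSeq table. It stood at 16.8 CPM (1375 counts) and 4.41 CPM (185 counts) in the astrocyte libraries, 0.0547 CPM (5 counts) and 0.0692 CPM (4 counts) in the neuron libraries, and had 0 counts and 1 count in the OPC libraries. The astrocyte libraries lay above all others, and the neuron libraries, at 0.0619 ± 0.0103 CPM (SD, n = 2), stood close to the level of 3 counts. Neurons against astrocytes gave -7.39 ± 0.96 on the log2 scale (SE; edgeR adjusted p = 0.00193). Omitting a library gave -6.01 without astrocyte replicate 1 and -8.04 without astrocyte replicate 2, called in both. The pooled ratio of astrocytes to OPCs was 911 (95% counting interval 163 to 36005; edgeR adjusted p = 0.00193). Omission of astrocyte replicate 1 gave 318, of OPC replicate 1 583 and of OPC replicate 2 at least 109-fold. Cxcl1 and Cxcl2 are close relatives in sequence, and how reads shared between them were counted is not given in the sources used here.

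Il6, the cytokine that signals to Stat3, stood at 17.6 CPM in astrocyte replicate 1 (1433 counts) and 1.62 CPM in astrocyte replicate 2 (68 counts). Each neuron library had 1 count and each OPC library had 0. The astrocyte libraries did not overlap the others, although they lay 10.8-fold apart. The log2 fold change of neurons against astrocytes was -9.26 ± 1.59 (SE; edgeR adjusted p = 0.00773). The pooled ratio of astrocytes to neurons was 906 (95% counting interval 250.5 to 7490.4). It was 121 without astrocyte replicate 1, 1310.3 without astrocyte replicate 2 and 702 and 1110.6 without neuron replicates 1 and 2. With OPCs set at a group floor of 3 counts, 0.0416 CPM, astrocytes were at least 292-fold higher (edgeR adjusted p = 0.00976). This bound was 39.0-fold when astrocyte replicate 1 was omitted, 187-fold when OPC replicate 1 was and 105-fold when OPC replicate 2 was. Without OPC replicate 2 the edgeR adjusted p rose to 0.0564, the only lost call of Il6, and it ran from 2.78e-08 to 0.0564 over all alternatives.

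**Figure D3:**
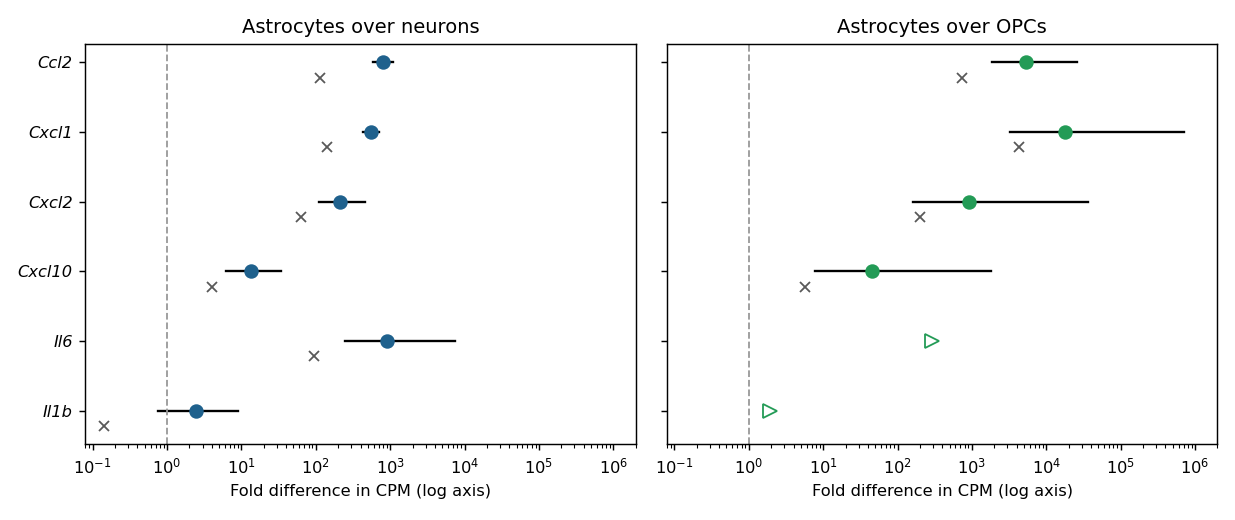
Ratio of astrocyte CPM to neuron CPM (left) and to OPC CPM (right) on a log axis, from counts pooled over the 2 libraries of a cell type; bars are 95% counting intervals, open triangles are lower bounds against a floor of 3 counts, and crosses set the lowest astrocyte library over the highest library of the other cell type. Ratios of Ccl2, Cxcl1 and Il6 to neurons lie between 552 and 906, that of Cxcl10 is 13.3 and the interval of Il1b, 0.752 to 9.01, spans 1.

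Cxcl10, the interferon-induced T cell attractant, had few counts in every library and failed the filter on low counts. It stood at 0.221 CPM (18 counts) and 1.41 CPM (59 counts) in astrocytes, 0.0547 CPM (5 counts) and 0.0346 CPM (2 counts) in neurons, and had 1 count and 0 counts in OPCs. Both astrocyte libraries lay above all others, by 4.03-fold at the least against neurons. The pooled ratio was 13.3 to neurons (95% counting interval 6.15 to 34.1) and 45.0 to OPCs (7.83 to 1799). In a fit of all 24873 genes with a count, the edgeR adjusted p was 0.016 against neurons and 0.0105 against OPCs. Both calls were lost without astrocyte replicate 2, at adjusted p = 0.371 and 0.217 in edgeR, where the pooled ratios were 4.70 and 15.9. Without OPC replicate 2 the edgeR adjusted p against OPCs was 0.133 and the pooled ratio was 16.2. The pooled ratios were 30.0 to neurons and 101 to OPCs without astrocyte replicate 1. Without OPC replicate 1, astrocytes were at least 9.59-fold above OPCs.

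Il1b, which can drive Il6 and several chemokines in glia, was at the edge of detection. It had 1 and 9 counts in the astrocyte libraries, 0 and 5 in the neuron libraries and 0 in both OPC libraries. The highest level was 0.214 CPM, in astrocyte replicate 2, and the astrocyte and neuron libraries overlapped. The pooled ratio of astrocytes to neurons was 2.42, with a 95% counting interval of 0.752 to 9.01. Omitting astrocyte replicate 1 gave 6.40, omitting astrocyte replicate 2 gave 0.366, omitting neuron replicate 1 gave 0.935, and omitting neuron replicate 2, which left 0 neuron counts, gave at least 2.47-fold. In the fit of all genes with a count, the edgeR adjusted p was 0.631 against neurons and 0.273 against OPCs. With OPCs set at a floor of 3 counts, astrocytes were at least 1.95-fold higher, a bound that was 0.701 without OPC replicate 2. The astrocyte libraries themselves lay 17.5-fold apart. No difference between cell types was called for Il1b, at these few counts and with this spread.

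In pooled CPM, Ccl2, Cxcl1, Cxcl2 and Cxcl10 stood highest in astrocytes, then neurons, then OPCs. edgeR did not part neurons from OPCs for any of them. For Cxcl2 and Cxcl10 the order of neurons and OPCs rests on 1 OPC count each. Their pooled neuron to OPC ratios, 4.35 and 3.39, had 95% counting intervals that span 1 (0.603 to 191 and 0.435 to 153). The neuron and OPC libraries overlapped for Cxcl10. Il6 and Il1b gave no order of neurons and OPCs, since 0 OPC counts allow up to 0.0416 CPM, above the neuron values of 0.0134 and 0.0335 CPM. Of the 4 genes tested, 0 differed between neurons and OPCs by edgeR at an adjusted p under 0.05. This comparison called 12.4% of all tested genes. The 4 genes were tested only because they passed the filter through astrocytes. In neurons and OPCs, Cxcl2 had 9 and 1 counts and Il6 had 2 and 0, which left little room for a call. The 0 is therefore not evidence that neurons and OPCs are alike for these genes. At an unadjusted p under 0.05 edgeR gave 1 gene, DESeq2 called 1 and limma-voom 0. That gene was Cxcl1, with 67 counts in neurons and 1 in OPCs. Its pooled ratio was 32.4 (95% counting interval 5.62 to 1299), its edgeR adjusted p was 0.11 and its DESeq2 adjusted p was 0.0163. Over all alternatives the adjusted p of Cxcl1 ran from 0.0163 to 0.408, and DESeq2 alone made the call. The ratio was 7.49 when neuron replicate 1 was omitted, 20.7 when OPC replicate 1 was and at least 3.89-fold when OPC replicate 2 was. Ccl2 had 42 counts in neurons and 3 in OPCs, a pooled ratio of 6.77 (2.16 to 34.1; edgeR adjusted p = 0.357), and neuron replicate 2 lay under OPC replicate 2. The ratio of Ccl2 was 1.25 when neuron replicate 1 was omitted, with 3 counts on each side, and 10.3 when neuron replicate 2 was. It was 4.33 when OPC replicate 1 was omitted and at least 2.44-fold when OPC replicate 2 was.

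Neuron replicate 1 held most of the neuronal signal of Ccl2 and Cxcl1, at 8.22-fold and 6.43-fold the level of replicate 2. For comparison, 1404 genes were called lower in both neurons and OPCs than in astrocytes and had at least 10 CPM in astrocytes, Ccl2, Cxcl1 and Cxcl2 among them. Of these, 1067 (76.0%) were higher in neuron replicate 1 than in replicate 2, with a median ratio of 1.59. Their median level, as a share of the astrocyte mean, was 11.0% in neuron replicate 1 and 5.61% in replicate 2. Ccl2 stood at 0.236% and 0.0287% of its astrocyte mean in the same libraries, and Cxcl1 at 0.317% and 0.0493%. Cxcl2 was at 0.514% and 0.651%. The class was selected on these libraries, so the shares are a description. What part RNA of other cells has in the neuronal counts was not tested.

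The astrocyte libraries differed from each other in how much of these genes they held. Replicate 1 was higher for Ccl2 (6.47-fold), Cxcl1 (3.48-fold), Cxcl2 (3.82-fold) and Il6 (10.8-fold), whereas replicate 2 was higher for Cxcl10 (6.37-fold) and had 9 of the 10 Il1b counts. The labels give both libraries the same product, passage and days in culture. Among 15042 tested genes with a mean of at least 1 CPM in astrocytes, the log2 ratio of replicate 1 to replicate 2 had an SD of 0.71 and a median of 0.04. Ratios at least as high were found for 0.133% of these genes in the case of Il6, 0.186% for Ccl2, 0.745% for Cxcl2 and 1.08% for Cxcl1. Counts per Cxcl1 count separate the genes further. Cxcl2 kept nearly the same ratio, 0.0516 and 0.0469, while Ccl2 went from 0.960 in replicate 1 to 0.516 in replicate 2 and Il6 from 0.0537 to 0.0172. For each of the 4 tested genes this difference was smaller than the gap between the lowest astrocyte and the highest neuron library, which ran from 63.7-fold for Cxcl2 to 141-fold for Cxcl1.

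**Figure D4:**
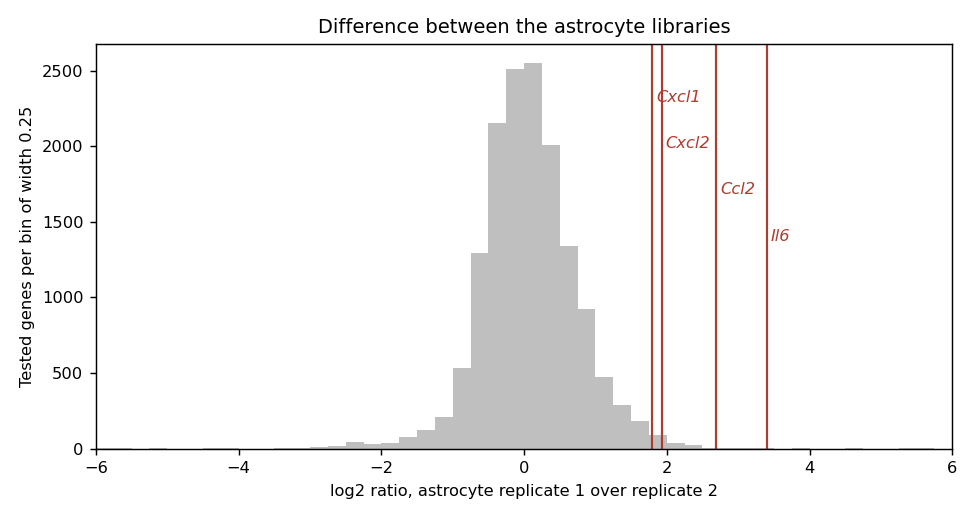
Histogram of the log2 ratio of astrocyte replicate 1 to replicate 2 over 15042 tested genes with at least 1 CPM in astrocytes (prior count 2; 8 genes lie beyond 6 on the axis), with red lines at 4 named genes. Each line lies in the right tail, from Cxcl1 at 1.80 to Il6 at 3.41.

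By a distance over the 6 libraries, Ccl2 lay near Cxcl1 and Il6 lay near Cxcl2. Likeness was measured as the root mean square difference of log2 CPM (prior count 2) over the 6 libraries, with each gene centred on its own mean. Places are among 12574 genes, those with a mean of at least 10 CPM in a cell type and the other tested members. Ccl2 was the gene closest to Cxcl1 but for 1, at a difference of 0.58, and Cxcl1 was the closest of these genes to Ccl2. The gene closest to Cxcl1 was ENSRNOG00000002052, at 0.44, which the sources used here do not name. It stood at 2829 and 1994 CPM in astrocytes, 10.9 and 1.51 CPM in neurons and 0.616 and 0.888 CPM in OPCs. Il6 and Cxcl2 lay 0.54 apart, with Cxcl2 in place 3 of the genes most like Il6 and Il6 in place 8 for Cxcl2. With a prior count of 0.5, Cxcl1 took place 3 for Ccl2, Cxcl2 place 2 for Il6 and Il6 place 22 for Cxcl2, and ENSRNOG00000045829 was closest to Cxcl1. These distances share libraries, and low counts draw profiles together where both groups are near 0. Mean astrocyte levels were also alike within each pair, 181 and 210 CPM for Ccl2 and Cxcl1 against 9.59 and 10.6 CPM for Il6 and Cxcl2. For these pairs, with neuron and OPC counts near 0, the distance therefore cannot tell likeness of profile from likeness of level. In edgeR's fitted log2 fold change against astrocytes, Il6 (-9.26 in neurons, -12.11 in OPCs) lay nearer Ccl2 (-9.47 and -12.06) than Cxcl2 (-7.39 and -9.40). With 0 OPC counts, the OPC value of Il6 depended on the method, at -10.77 by DESeq2 and -8.81 by limma-voom. Cxcl2 stood at -9.53 and -8.59 there, and Ccl2 at -12.26 and -11.54. In OPCs Il6 thus lay nearer Cxcl2 by both methods, while in neurons it stayed nearer Ccl2. Which of them Il6 lay nearer is therefore not settled.

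**Figure D5:**
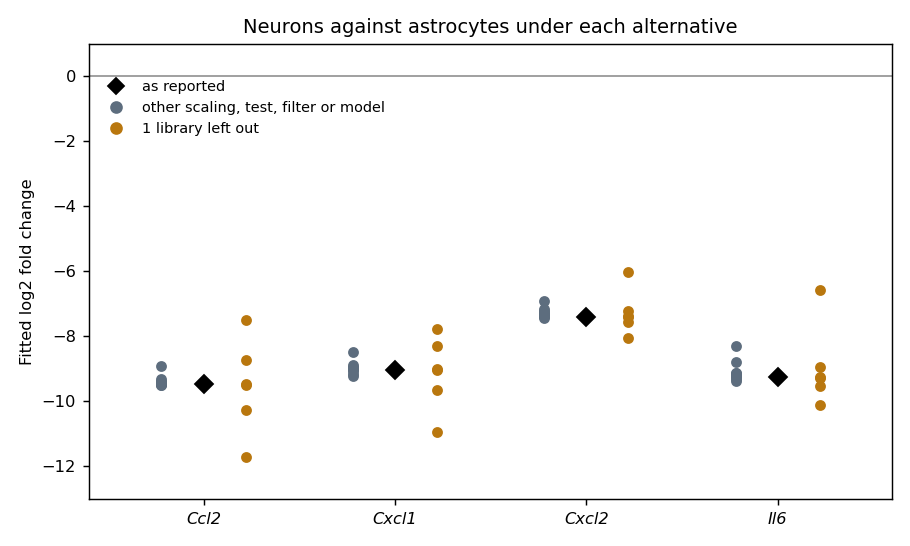
Fitted log2 fold change of neurons against astrocytes for 4 genes: black diamonds as reported, grey circles under other scalings, tests, filters or models, and orange circles with 1 library left out. Values run from -11.70 for Ccl2 without neuron replicate 1 to -6.01 for Cxcl2 without astrocyte replicate 1, and all lie under 0.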

How the data were processed

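Per the labels' protocols, column-purified RNA went into standard Illumina libraries for HiSeq sequencing. The authors deposited raw counts per gene. No source used here names the aligner, counter, build, annotation or use of strand, so reads of overlapping genes cannot be told apart. Label descriptions tied each column to its sample, and 0 columns were left unused. The 6 genes matched RefSeq (GRCr8) by symbol. RefSeq gave 0 Ensembl identifiers, so planned lists of partner and marker genes were not counted.

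Tests used edgeR 4.0.16 in R 4.3.3, with filterByExpr by cell type (minimum count 10, total 15; 18206 genes), TMM factors, 1 coefficient per cell type over all 6 libraries and robust quasi-likelihood F tests (two-sided, 3 residual degrees of freedom), adjusted by Benjamini-Hochberg at 0.05. SEs come from the fold change and F. An edgeR p beside a pooled ratio or bound belongs to the fitted fold change, not to that ratio. Where both groups had counts, the pooled ratio over all their libraries has an exact 95% binomial interval. The steps were tested on simulated data. DESeq2 1.42.0 and limma 3.58.1 were alternatives. Named were the 6 genes, the 2 closest profiles to the one with the highest mean CPM, and its closest profile at a prior count of 0.5. Genes and lists were chosen with earlier results of these data known.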

Additional observations from a re-analysis of the deposited data

How the results depend on the processing

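Ccl2, Cxcl1, Cxcl2 and Il6 stayed called and lower in neurons than in astrocytes in all 60 values under other scalings, tests, filters, models and omissions of a library. Against OPCs 59 of 60 values stayed called, and Il6 lost its call without OPC replicate 2. Between neurons and OPCs, DESeq2 called 1 of the 4 genes, Cxcl1 (0 by edgeR), and 59 of 60 values kept their side of the threshold. The cause was not tested. The 60 values of each comparison refit the same libraries, for genes that passed the filter through astrocytes alone. The tallies against astrocytes are therefore a description and no further evidence that these genes differ. The tally between neurons and OPCs rests on few counts and is no evidence that these cell types are alike. With the replicate number as a block, 4 genes were called in neurons, 4 in OPCs against astrocytes, and 0 between neurons and OPCs. Deviations of same-numbered libraries correlated at 0.147 to 0.292 over genes, and no label says what a number marks. Scaling by total counts alone shifted the median over all genes from -0.06 to 0.40 (log2) for neurons and from -0.04 to 0.39 for OPCs against astrocytes, where the neuron change of Ccl2 was -8.92. Where 1 library was left in a group, its spread was taken from the other groups. Ccl2 kept rank 2 among genes like Cxcl1 with a prior count of 0.5. The use of fits without the low-count filter for Cxcl10 and Il1b, there with each library left out and by DESeq2, was chosen after seeing the data. Depth limits Il1b, Cxcl10 and all OPC values, which rest on 0 to 3 counts per library.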
